A study of Mus musculus with 9 samples.

Results

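The Hippo pathway genes Yap1, Wwtr1, Tead1, Tead2, Tead3, Tead4, Amotl2, Lats1, Lats2 and Stk3 were followed across 9 RNA libraries of mouse bone marrow neutrophils. They were chosen by symbol, each symbol matched 1 Ensembl gene, and so they are 10 of the 54532 genes in the deposited read counts. Neutrophils of wild type C57/B6 mice were kept for 12 h with 0.5% fetal bovine serum, with PyMT-N cells, with PyMT-M cells or alone, and each condition had 3 libraries called biological replicates in the labels. PyMT is the polyoma virus middle T antigen, which drives mammary carcinoma in a widely used mouse model; the labels do not say what N and M stand for, and describe neither cell population further. Co-cultured neutrophils were sorted by fluorescence (FACS) before RNA isolation, whereas for those kept alone the labels mention no sort, so sorting and co-culture cannot be told apart in either comparison with them. The libraries were built from 150 pg of RNA, and the labels do not tie replicates to separate animals, so p-values measure the spread between these libraries, which may be technical.

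The Hippo pathway is a kinase cascade that restrains growth. The kinase MST2, product of Stk3, and its paralogue MST1 activate the kinases LATS1 and LATS2, which phosphorylate the coactivators YAP and TAZ and thereby hold them in the cytoplasm. Unphosphorylated YAP (Yap1) and TAZ (Wwtr1) enter the nucleus and bind TEAD transcription factors, which bring them to target genes such as Ccn1, Ccn2 and Ankrd1. Amotl2 encodes an angiomotin-like scaffold that holds YAP and is itself a target of YAP and TEAD, as is Lats2. YAP and TAZ are best known from epithelial, mesenchymal and tumour cells.

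Promoter windows that carry the core letters of the TEAD binding site are shown first, because TEADs are the partners through which YAP and TAZ act and because the 3 genes shown had large differences between conditions. The windows are the 250 bases before a gene's annotated start, from RefSeq on GRCm38.p6, read 5′ to 3′ on the gene's strand. Capitals mark the searched letters GGAATG or CATTCC, which are the same core read on either strand.
Yap1, chr9:8004597-8004846, minus strand: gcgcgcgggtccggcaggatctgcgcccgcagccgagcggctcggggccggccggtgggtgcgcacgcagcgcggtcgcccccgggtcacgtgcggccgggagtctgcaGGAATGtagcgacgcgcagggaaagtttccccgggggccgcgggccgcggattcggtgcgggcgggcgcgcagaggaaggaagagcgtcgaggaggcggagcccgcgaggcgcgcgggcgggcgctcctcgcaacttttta
Wwtr1, chr3:57575911-57576160, minus strand: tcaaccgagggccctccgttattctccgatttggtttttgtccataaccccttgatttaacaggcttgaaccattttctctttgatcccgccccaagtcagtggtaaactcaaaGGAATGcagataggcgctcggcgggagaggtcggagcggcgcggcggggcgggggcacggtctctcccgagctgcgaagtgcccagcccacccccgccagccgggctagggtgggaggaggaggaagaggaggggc
Ccn1, chr3:145649986-145650235, minus strand: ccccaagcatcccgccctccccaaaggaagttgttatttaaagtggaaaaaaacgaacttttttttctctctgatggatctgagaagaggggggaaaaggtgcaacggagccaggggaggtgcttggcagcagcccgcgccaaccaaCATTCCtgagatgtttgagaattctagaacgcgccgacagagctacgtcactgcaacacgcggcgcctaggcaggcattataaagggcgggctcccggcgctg
The match lies 141 to 136 bases before the start in Yap1, 136 to 131 bases before it in Wwtr1 and 103 to 98 bases before it in Ccn1, a secreted matricellular protein. The bases after the RefSeq start lay in a GENCODE M21 transcript of the gene for Yap1 and Wwtr1 but not for Ccn1. The Ccn1 distance thus holds for the RefSeq start only. RefSeq windows were found for 7 of the 10 pathway genes, and 4 of these 7 had a match in any window, namely Yap1, Wwtr1, Amotl2 and Tead3. By window, 6 of 11 held a match. The matching Amotl2 window shared 136 of its 250 bases with annotated exons of the same gene, and a matching Tead3 window shared 217. Lats1, Lats2 and Tead2 had none in these windows. From the list of 20 target genes described below, 13 had windows. Only 5 of these 13 held a match, Ccn1 among them. The core is short and common: 12.6% of all 32851 upstream windows, and 3880 of 27025 genes, held it. A match thus describes the letters and does not show binding. No other motif was searched.

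Library totals ran between 3507969 and 4524563 counts with PyMT-N cells, between 3269332 and 4307585 with PyMT-M cells and between 1641049 and 3180382 alone. Levels below are normalised CPM, counts scaled to library totals that were themselves adjusted by trimmed means (TMM). A count of 0 allows up to 0.570 to 2.25 normalised CPM by library, the worth of 3 counts. Alone replicate 3 stood apart, with the fewest counts, the fewest detected genes (11814 of up to 17008) and a chi-square over its degrees of freedom of 33.0 and 37.7 against its fellow libraries, where all other pairs within a group had 6.67 to 16.2. Differences are log2 fold changes ± SE from the quasi-likelihood test of edgeR over 12012 genes, and calls were made below an adjusted p of 0.05.

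The neutrophil label was checked against marker genes. Csf3r, the G-CSF receptor of neutrophils, had 2872 ± 300.5 normalised CPM with PyMT-N cells, 1885 ± 277 with PyMT-M cells and 4974 ± 852 alone (SD, n = 3 each). All 10 neutrophil markers had counts in every group, and their summed level was 15345 to 19253 with PyMT-N cells, 13325 to 16953 with PyMT-M cells and 29583 to 42523 alone. Markers of other cell types were present too and differed between conditions. All 20 epithelial markers summed to 2972 to 3714 normalised CPM with PyMT-N cells, 278 to 354 with PyMT-M cells and 467 to 778 alone. Markers with a mean of at least 10 in the alone libraries were then left out. Low alone sums of the shortened lists follow from that choice. Without Cd24a, the other 19 summed to 2323 to 3102 with PyMT-N cells, 68.9 to 95.1 with PyMT-M cells and 5.26 to 22.3 alone. Krt18, a keratin, had 331 ± 28.8 with PyMT-N cells, 0.127 ± 0.219 with PyMT-M cells and 0.694 ± 0.667 alone. Epcam was at 0 in all alone libraries, and Krt5 was at 0 in every library. All 20 mesenchymal markers summed to 2085 to 2401 with PyMT-N cells, 3712 to 4408 with PyMT-M cells and 1480 to 1734 alone. Fn1, Vim, Acta2 and Zeb1 were left out by the same rule. The other 16 summed to 684 to 789.6 with PyMT-N cells, 1272 to 1345 with PyMT-M cells and 8.17 to 21.8 alone. Col1a2, Col3a1, Col6a1 and Tagln were at 0 with PyMT-N cells, Thy1 and Cdh2 with PyMT-M cells, and Col1a2, Cdh2, Twist1, Prrx1 and Bgn alone. Pan-leukocyte genes summed to 12479 to 15224 with PyMT-N cells, 9068 to 12338 with PyMT-M cells and 27587 to 30648 alone. B cell genes summed to 16.9 to 18.9 with PyMT-N cells, 78.9 to 125 with PyMT-M cells and 558 to 1286 alone. Monocyte and macrophage genes summed to 607 to 794 with PyMT-N cells, 433 to 648 with PyMT-M cells and 997 to 1438 alone. Endothelial and platelet genes stayed low, at 29.6 to 64.8 with PyMT-N cells, 4.71 to 13.2 with PyMT-M cells and 24.8 to 146 alone. The part of these other transcripts in the results below was not tested.

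**Figure D1:**
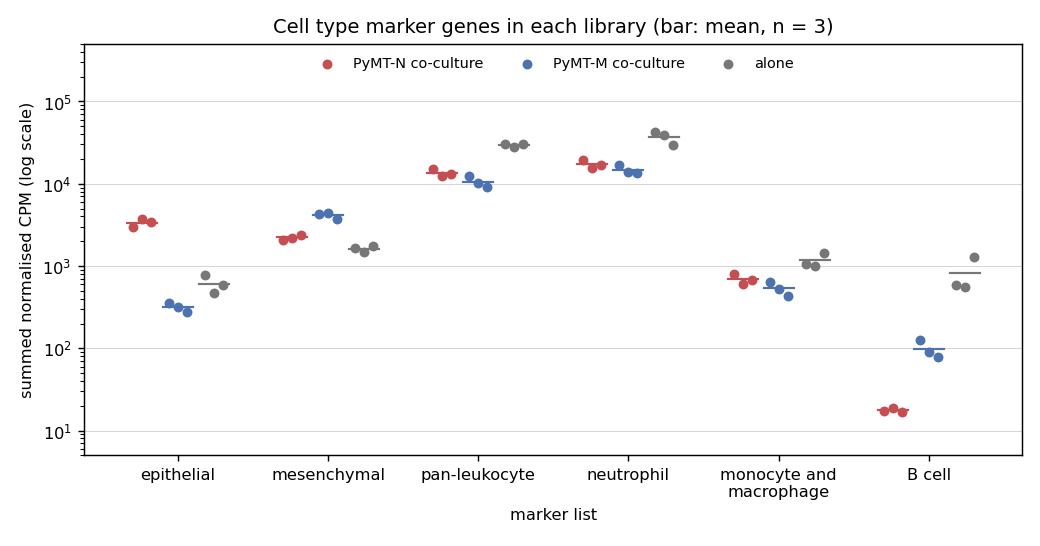
Summed normalised CPM of 6 marker lists (x axis) in each library (log y axis), with a bar for the mean of 3 libraries; PyMT-N co-culture is red, PyMT-M co-culture blue and alone grey. Lists are complete, with no marker left out. The epithelial sum is highest with PyMT-N cells, the mesenchymal sum with PyMT-M cells, and the pan-leukocyte, neutrophil and B cell sums in the neutrophils kept alone.

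Yap1, Wwtr1, Tead1, Tead4 and Amotl2 were at or near the detection limit in neutrophils kept alone and well above it in both co-cultures. Of the 10 genes, 9 passed the filter on low counts and Tead3 did not. With PyMT-N cells against alone, 6 of these were called higher (Stk3, Amotl2, Yap1, Wwtr1, Tead1 and Tead4), 0 lower and 3 were not called, where 29.4% of all tested genes were called higher and 23.6% lower. By DESeq2, 7 were higher and 0 lower. With PyMT-M cells against alone, 7 were called higher (the same 6 and Tead2), 0 lower and 2 were not called, beside 28.2% higher and 27.9% lower of all tested genes; DESeq2 likewise called 7 and 0. At an unadjusted p under 0.05, edgeR also gave 0 lower in either comparison. Both comparisons share the alone libraries. Genes that passed the filter only through high levels in a co-culture had to differ from alone, so these counts describe the genes and support nothing further. In bulk RNA, fewer cells of a type and less RNA per cell cannot be told apart.

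**Figure D2:**
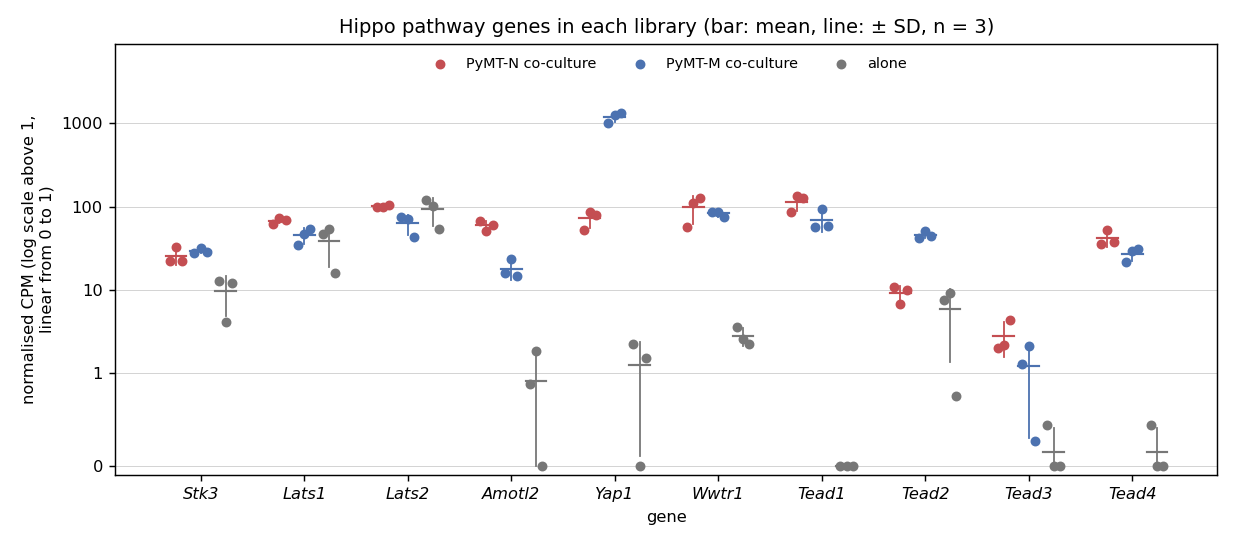
Normalised CPM (y axis, logarithmic above 1 and linear below) of the 10 genes in each library, with PyMT-N co-culture in red, PyMT-M co-culture in blue and alone in grey; bars are means and lines ± SD of 3 libraries. Yap1 in PyMT-M co-culture, at 1015 to 1338, lies above every other point, and Tead1 has no counts in any alone library.

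Of the kinase genes Stk3, Lats1 and Lats2, Stk3 rose in both co-cultures and the other two were not called. Stk3 lies on chromosome 15 (GRCm38 15:34875496-35178921, ENSMUSG00000022329) and had 22.3, 32.6 and 22.5 normalised CPM in the PyMT-N libraries, 27.8, 31.7 and 28.9 in the PyMT-M libraries, and 12.9, 4.09 and 12.0 in the alone libraries. Every co-culture library was above every alone library, and the co-cultures overlapped. The log2 fold change was 1.50 ± 0.39 for PyMT-N against alone (adjusted p = 0.00472), 1.70 ± 0.38 for PyMT-M against alone (adjusted p = 0.00162) and -0.20 ± 0.29 between PyMT-N and PyMT-M (adjusted p = 0.637). Its paralogue Stk4, the MST1 gene, was lower in both co-cultures under TMM scaling: it had 127 ± 17.4 with PyMT-N cells, 112 ± 17.4 with PyMT-M cells and 348 ± 63.5 alone (SD, n = 3 each). Stk4 fell by 1.45 ± 0.20 with PyMT-N cells (adjusted p = 2.36e-05) and by 1.63 ± 0.20 with PyMT-M cells (adjusted p = 1.03e-05), on the log2 scale. Scaled to pan-leukocyte genes, neither call of Stk4 remained, at -0.32 with PyMT-N cells (adjusted p = 0.203) and -0.13 with PyMT-M cells (0.615), whereas Stk3 stayed called.

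Lats1 (10:7681214-7716460, ENSMUSG00000040021), a kinase that phosphorylates YAP and TAZ, had 62.3, 72.1 and 69.2 normalised CPM in the PyMT-N libraries, 34.7, 47.5 and 54.0 in the PyMT-M libraries, and 47.0, 53.5 and 15.8 in the alone libraries. The PyMT-N libraries were all above the others, while PyMT-M and alone overlapped. None of its differences passed: 0.73 ± 0.31 for PyMT-N against alone (adjusted p = 0.0630), 0.14 ± 0.32 for PyMT-M against alone (0.724) and 0.58 ± 0.29 between PyMT-N and PyMT-M (0.134). The first is near the threshold and was called in 6 of 14 alternative settings. With single libraries left out, it ran from 0.44 to 1.01, with an adjusted p of up to 0.132. Its highest value came without alone replicate 2 (adjusted p = 0.0335).

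Lats2 (14:57689662-57758388, ENSMUSG00000021959) acts beside Lats1 and is also a target of YAP. Its exons share 2955 of 6971 bases with the gene model Gm49361 on the same strand, which had 0 counts. How reads in shared bases were counted is not known, so the level of Lats2 may be understated. It had 100.3, 98.4 and 103 normalised CPM in the PyMT-N libraries, 75.5, 70.1 and 43.4 in the PyMT-M libraries, and 121, 103 and 54.1 in the alone libraries. PyMT-N libraries were above all PyMT-M libraries, and both overlapped with alone. No difference was called: 0.09 ± 0.27 for PyMT-N against alone (adjusted p = 0.806), -0.58 ± 0.27 for PyMT-M against alone (0.0840) and 0.67 ± 0.26 between PyMT-N and PyMT-M (0.0625). The last was called in 2 of 14 alternative settings, with a lowest adjusted p of 0.00758. Without alone replicate 3 the PyMT-M difference from alone was -0.81 (adjusted p = 0.00260), and scaled to pan-leukocyte genes it was 0.88 (adjusted p = 0.00927).

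Amotl2 (9:102716672-102733418, ENSMUSG00000032531), the angiomotin-like scaffold, had 66.8, 51.0 and 60.8 normalised CPM in the PyMT-N libraries, 15.8, 23.6 and 14.6 in the PyMT-M libraries, and 0.887, 1.86 and 0 in the alone libraries. The 3 conditions did not overlap, and PyMT-N libraries were highest. Amotl2 rose by 5.70 ± 0.51 with PyMT-N cells against alone (adjusted p = 9.52e-08) and by 3.99 ± 0.60 with PyMT-M cells against alone (adjusted p = 3.24e-05). It was 3.27-fold higher with PyMT-N than with PyMT-M cells, a log2 difference of 1.71 ± 0.27 (adjusted p = 8.27e-05). Alone replicate 2 held most of its few counts there, and without that library the differences from alone were 6.66 and 4.95.

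Yap1 (9:7931999-8004596, ENSMUSG00000053110), the gene of the coactivator YAP, differed most between the co-cultures of the 9 genes tested. It had 52.6, 85.5 and 79.0 normalised CPM in the PyMT-N libraries, 1015, 1271 and 1338 in the PyMT-M libraries, and 2.22, 0 and 1.50 in the alone libraries. The 3 conditions were far apart, the lowest PyMT-M library standing at 1015 and the highest PyMT-N library at 85.5. Against alone, Yap1 rose by 5.97 ± 0.47 with PyMT-N cells (62.8-fold, adjusted p = 2.25e-08) and by 10.03 ± 0.41 with PyMT-M cells (1046-fold, adjusted p = 5.59e-11). With PyMT-N against PyMT-M cells it was 16.6-fold lower, a log2 difference of -4.06 ± 0.24 (adjusted p = 1.05e-09), and this difference lay between -4.44 and -3.88 over 14 alternative settings. The folds against alone rest on few counts there: without alone replicate 1 they were 7.09 for PyMT-N and 11.15 for PyMT-M, and without alone replicate 2 they were 5.20 and 9.25.

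Wwtr1 (3:57455649-57575910, ENSMUSG00000027803) encodes TAZ, the paralogue of YAP, and did not show this difference between the co-cultures. It had 56.3, 111 and 128 normalised CPM in the PyMT-N libraries, 87.3, 86.0 and 74.7 in the PyMT-M libraries, and 3.55, 2.60 and 2.25 in the alone libraries. The co-cultures overlapped and both lay above alone. Wwtr1 rose by 5.09 ± 0.44 with PyMT-N cells (34.1-fold, adjusted p = 1.98e-07) and by 4.84 ± 0.45 with PyMT-M cells (28.6-fold, adjusted p = 7.47e-07). PyMT-N and PyMT-M co-cultures differed by 0.26 ± 0.25 (adjusted p = 0.473), which does not show that they were alike.

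A ratio of the coactivator genes within a library does not depend on how libraries are scaled. Per kilobase of annotated exon, Yap1 over Wwtr1 was 0.482, 0.397 and 0.320 in the PyMT-N libraries and 6.0, 7.63 and 9.25 in the PyMT-M libraries. Wwtr1 was thus above Yap1 per kilobase in every PyMT-N library and below it in every PyMT-M library. The exact two-sided permutation p over the 6 libraries was 0.1, the smallest that 3 against 3 allows. In alone libraries both genes had too few counts for a stable ratio.

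The TEAD genes encode the DNA-binding partners. Tead1 (7:112679318-112906807, ENSMUSG00000055320) had 85.1, 134 and 126 normalised CPM in the PyMT-N libraries, 56.7, 93.6 and 58.8 in the PyMT-M libraries, and 0 in each alone library. Set against 3 counts over the alone group, Tead1 was at least 243-fold higher with PyMT-N cells (adjusted p = 1.88e-07) and at least 149.5-fold higher with PyMT-M cells (adjusted p = 1.25e-06). Between the co-cultures the libraries overlapped: PyMT-N minus PyMT-M was 0.72 ± 0.26, just inside the threshold (adjusted p = 0.0473). That call held in only 5 of 14 alternative settings. It was lost under 3 of 3 other scalings (0.36 to 0.65), with the filter at 50 counts (0.70, adjusted p = 0.0524), with DESeq2 (0.65, adjusted p = 0.0952), and without PyMT-N replicate 2 (0.60), PyMT-N replicate 3 (0.65), PyMT-M replicate 1 (0.58) or PyMT-M replicate 3 (0.60).

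Tead2 (7:45215753-45233644, ENSMUSG00000030796) followed Yap1 in being higher with PyMT-M cells. It had 10.9, 6.85 and 9.85 normalised CPM in the PyMT-N libraries, 42.4, 50.3 and 44.8 in the PyMT-M libraries, and 7.54, 9.29 and 0.751 in the alone libraries. PyMT-M libraries were above all others, and PyMT-N overlapped with alone. Tead2 rose by 2.77 ± 0.39 with PyMT-M cells against alone (6.80-fold, adjusted p = 3.35e-05), and was 4.97-fold lower with PyMT-N than with PyMT-M cells (-2.31 ± 0.32, adjusted p = 4.88e-05). PyMT-N against alone was 0.45 ± 0.47 (adjusted p = 0.443), and 1.55 (adjusted p = 0.0145) when scaled to pan-leukocyte genes. Its exons share 13 bases with Cd37 on the other strand. Cd37, a leukocyte tetraspanin, had 45.1 ± 4.42 with PyMT-N cells, 55.5 ± 14.2 with PyMT-M cells and 179 ± 28.0 alone, so its order differed from that of Tead2.

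Tead3 and Tead4 were each at 1 count over the alone libraries. Tead4 (6:128224288-128300823, ENSMUSG00000030353) had 35.7, 52.9 and 37.3 normalised CPM in the PyMT-N libraries, 21.4, 29.1 and 30.7 in the PyMT-M libraries, and 0.443, 0 and 0 in the alone libraries. All PyMT-N libraries were above all PyMT-M libraries, which were above alone. The alone group held 1 count of Tead4, so the ratio was 261 for PyMT-N against alone (95% counting interval 46.7 to 10345, adjusted p = 9.12e-07) and 169 for PyMT-M against alone (30.1 to 6690.1, adjusted p = 6.25e-06). Between the co-cultures Tead4 differed by 0.63 ± 0.27 (adjusted p = 0.0829). Tead3 (17:28331671-28350817, ENSMUSG00000002249) had 2.00, 2.19 and 4.28 in the PyMT-N libraries, 1.28, 2.09 and 0.265 in the PyMT-M libraries, and 0.443, 0 and 0 in the alone libraries, which is 35, 18 and 1 counts in the 3 groups. The co-cultures overlapped. Its ratio to alone was 18.6 (3.13 to 755) with PyMT-N cells and 8.24 (1.30 to 343) with PyMT-M cells, and such intervals cover counting error only. Fitted with no filter, Tead3 differed from alone by 3.99 with PyMT-N cells (adjusted p = 0.0157) and by 2.86 with PyMT-M cells (0.196).

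Per kilobase of exon, which allows levels of different genes to be compared, the order of the pathway genes changed with the condition. With PyMT-N cells Wwtr1 was first (20.6 ± 7.82), followed by Lats2 (14.4 ± 0.348) and Tead4 (11.7 ± 2.64), though the Wwtr1 range of 11.8 to 26.7 overlapped with both; Yap1 held rank 7 of 10 at 7.82 ± 1.89, and its range overlapped with those of Amotl2, Lats1 and Tead1. With PyMT-M cells Yap1 led at 131 ± 18.4, apart from Wwtr1 (17.3 ± 1.46) and from the next group of Tead2 (9.57 ± 0.854), Lats2 (9.04 ± 2.47) and Tead4 (7.52 ± 1.38), of which Lats2 overlapped with both others. In neutrophils alone the kinases Lats2 (13.3 ± 4.95), Lats1 (5.31 ± 2.76) and Stk3 (1.58 ± 0.791) had the 3 highest means. Tead2 followed at 1.22 ± 0.942, and its range of 0.157 to 1.94 overlapped with that of Stk3 (0.669 to 2.10). Wwtr1, the highest of the coactivators in neutrophils alone, had 0.586 ± 0.140 normalised CPM per kilobase. Lats2 over Lats1 per kilobase was 1.56 ± 0.128 with PyMT-N cells, 1.56 ± 0.720 with PyMT-M cells and 2.76 ± 0.790 alone. Ranks and ratios of Lats2 are uncertain, because its exons overlap with those of Gm49361.

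Several targets of YAP and TEAD were higher with PyMT-N cells, unlike Yap1. A list of 20 targets, without Amotl2 and Lats2, was read from a published cross-cancer signature as remembered, and 16 were tested. With PyMT-N against PyMT-M cells, 10 of 16 were called higher and 1 lower, with a median log2 difference of 1.07, where 19.1% of all tested genes were called higher, 15.5% lower, and the median was -0.02. Of the 9 pathway genes tested, 2 were higher (Amotl2 and Tead1), 2 lower (Yap1 and Tead2) and 5 not called; Tead1 was not called under the other scalings.

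Ccn1 had 229, 281 and 268 normalised CPM in the PyMT-N libraries, 25.9, 20.5 and 21.7 in the PyMT-M libraries, and 0.443, 0 and 0 in the alone libraries. Ccn2, a secreted matrix regulator also known as connective tissue growth factor, had 129, 149 and 151 in the PyMT-N libraries, 0.214, 3.23 and 1.06 in the PyMT-M libraries, and 0, 0.372 and 0 in the alone libraries. Ankrd1, an ankyrin-repeat protein known from heart and skeletal muscle, had 117, 154 and 161 in the PyMT-N libraries, 0.856, 0.760 and 1.59 in the PyMT-M libraries, and 0 in each alone library. For all 3 genes each PyMT-N library exceeded all 6 others, while Yap1 was 16.6-fold lower with PyMT-N than with PyMT-M cells. Ccn2 and Ankrd1, with 22 and 14 counts over the PyMT-M libraries, passed the filter through the PyMT-N libraries where they were high, so their place in the count of 10 was set in part by that filter. The log2 difference of PyMT-N from PyMT-M was 3.51 ± 0.22 for Ccn1 (adjusted p = 2.18e-08), 6.46 ± 0.40 for Ccn2 (adjusted p = 1.59e-08) and 7.09 ± 0.37 for Ankrd1 (adjusted p = 6.64e-09). Nt5e, an ectonucleotidase, had 98.8 ± 11.8 with PyMT-N cells, 14.1 ± 3.73 with PyMT-M cells and 13.8 ± 12.8 alone, and differed between the co-cultures by 2.81 ± 0.36 (adjusted p = 2.05e-05). Rbms3, an RNA-binding protein, was the target called lower with PyMT-N cells: it was at 0 in every PyMT-N library and had 3.85, 5.32 and 14.8 in the PyMT-M libraries (adjusted p = 0.00204), and was at 0 alone. Rbms3 passed the filter only through the PyMT-M libraries, so its call was likewise set in part by that filter. In the same libraries the epithelial marker Krt8 had 376 ± 17.8 with PyMT-N cells, 43.3 ± 5.46 with PyMT-M cells and 0.148 ± 0.256 alone, and the mesenchymal marker Sparc had 67.7 ± 22.6 with PyMT-N cells, 368 ± 31.5 with PyMT-M cells and 0.148 ± 0.256 alone. Their part in the target differences was not tested.

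**Figure D3:**
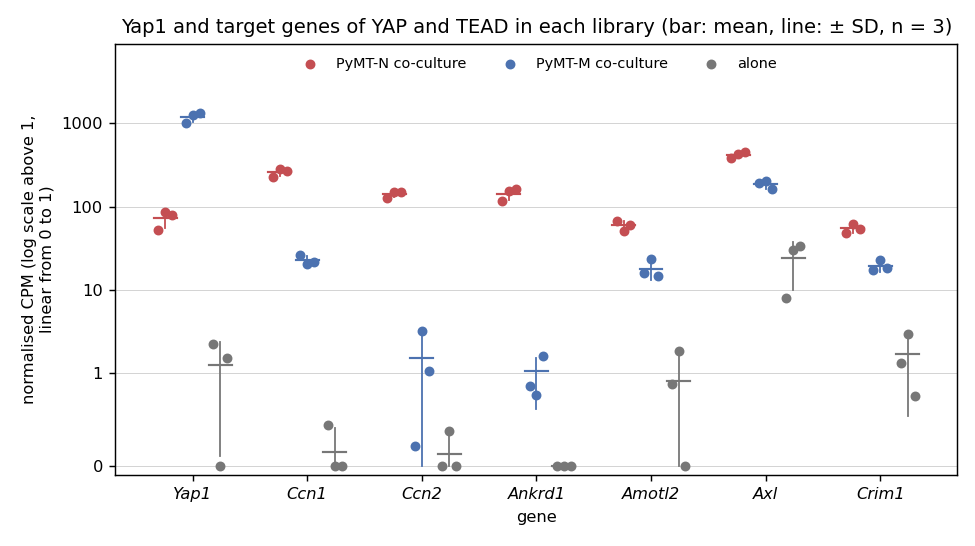
Normalised CPM (y axis, logarithmic above 1 and linear below) of Yap1 and 6 target genes in each library, with PyMT-N co-culture in red, PyMT-M co-culture in blue and alone in grey; bars are means and lines ± SD of 3 libraries. Yap1 is highest with PyMT-M cells, while all 6 targets are highest with PyMT-N cells, and Ccn2 and Ankrd1 are at 0.214 to 3.23 with PyMT-M cells.

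Against alone, 11 of the 16 tested targets were called higher and 2 lower with PyMT-N cells (median 3.46, against 0.12 over all tested genes), and 8 higher and 3 lower with PyMT-M cells (median 3.04, against -0.03). Of all tested genes 29.4% were higher and 23.6% lower with PyMT-N cells, and 28.2% and 27.9% with PyMT-M cells. Targets near 0 alone, such as Ccn1, Ccn2 and Ankrd1, passed the filter through co-culture libraries, which set part of these target counts. Scaled to pan-leukocyte genes, the targets numbered 13 and 0 in each comparison, where all genes numbered 6993 and 840 with PyMT-N cells and 7610 and 290 with PyMT-M cells. With PyMT-N cells the called rises of smallest p were Ccn1, with a ratio of 1635 (95% counting interval 293 to 64588), Ccn2, with a ratio of 903 (162 to 35693), Ankrd1, at least 304-fold, and the phosphatase gene Ptpn14, 7.42 ± 0.49 on the log2 scale. With PyMT-M cells they were Ptpn14 (6.18 ± 0.54), Ccn1 (ratio 142, 25.4 to 5641), the receptor kinase gene Axl (3.01 ± 0.32) and Crim1 (3.34 ± 0.48), a membrane protein that binds BMPs. Ccn2 and Ankrd1 were not called with PyMT-M cells against alone (adjusted p = 0.111 and 0.0688). Scaled to pan-leukocyte genes, both were called, at 4.31 for Ccn2 (adjusted p = 0.0236) and 5.43 for Ankrd1 (0.0318). By library totals Ankrd1 was called (5.09, adjusted p = 0.0470) and Ccn2 was not (3.51, 0.0656). Dock5, a Rac exchange factor, fell by 1.27 ± 0.23 with PyMT-N cells and by 1.99 ± 0.24 with PyMT-M cells, and Asap1, an Arf GTPase activator, fell by 1.16 ± 0.25 with PyMT-N cells and by 1.16 ± 0.24 with PyMT-M cells. The kinase gene Nuak2 rose by 0.94 ± 0.31 with PyMT-N cells (adjusted p = 0.0170) and fell by 0.90 ± 0.34 with PyMT-M cells (adjusted p = 0.0350). The Nuak2 rise stayed called under library totals and pan-leukocyte scaling, but its fall did not. That PyMT-M difference was -0.39 (adjusted p = 0.360) by library totals and 0.59 (adjusted p = 0.224) by pan-leukocyte genes. For 4 of the 20 targets (Igfbp3, Fjx1, Foxf2 and Tgfb2) no test was made, as none exceeded 4.18 normalised CPM in any library.

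**Figure D4:**
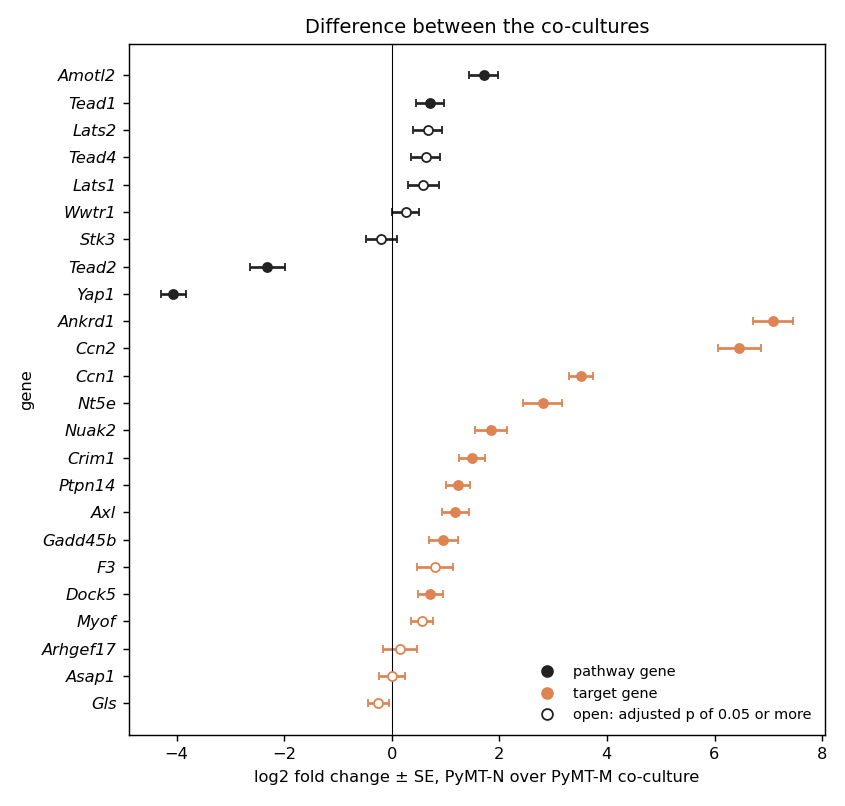
Log2 fold change ± SE of PyMT-N over PyMT-M co-culture (x axis) from edgeR for the 9 tested pathway genes (black) and 15 tested targets (orange), with open points for an adjusted p of 0.05 or more; Rbms3, at 0 with PyMT-N cells, is left out. Yap1 (-4.06) and Tead2 (-2.31) lie far left of 0, and Ankrd1 (7.09) and Ccn2 (6.46) far right.

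Other genes of the pathway were described from a list of 36, of which 32 were tested. Ptpn14 is on this list and on the target list, so it enters the counts of both. With PyMT-N cells against alone, 14 were called higher and 7 lower, with a median of 0.21, beside 29.4% and 23.6% of all tested genes. Scaled by library totals these counts were 15 and 5, and scaled to pan-leukocyte genes 21 and 1, when 6993 and 840 of all 12012 genes were called. With PyMT-M cells against alone, 8 were higher and 10 lower, with a median of -0.34, near the shares of all tested genes, 28.2% and 27.9%. By library totals they were 11 and 4, and by pan-leukocyte genes 20 and 0. All tested genes turned with these scalings too, to 4571 higher and 1913 lower by library totals and to 7610 and 290 by pan-leukocyte genes, against 3382 and 3353. Without PyMT-M replicate 1 only 6 were called lower. With PyMT-N against PyMT-M cells, 9 were higher and 1 lower, with a median of 0.35, beside 19.1% and 15.5% of all tested genes. Vgll3, Amot and Wtip, at 0 to 2 counts with PyMT-M cells, passed the filter through the PyMT-N libraries, which set part of that count. Wwc1, Vgll3, Amotl1 and Fat1, at 0 to 2 counts alone, likewise passed through co-culture libraries. Under pan-leukocyte scaling, the calls of Vgll4 (0.60), Dlg1 (0.41) and Rassf5 (0.24) were lost. All genes then numbered 1510 higher and 3118 lower.

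The LIM protein Ajuba, which restrains LATS kinases, had 219, 244 and 229 normalised CPM in the PyMT-N libraries, 53.1, 71.0 and 75.2 in the PyMT-M libraries, and 0.443, 1.86 and 0.751 in the alone libraries. Its libraries did not overlap between conditions, and its log2 fold change was 7.65 ± 0.37 for PyMT-N against alone (adjusted p = 6.50e-11), 5.85 ± 0.41 for PyMT-M against alone (adjusted p = 1.75e-08) and 1.80 ± 0.19 for PyMT-N against PyMT-M (adjusted p = 1.40e-06). Amotl1, another angiomotin-like scaffold, had 137 ± 4.74 with PyMT-N cells and 105 ± 11.8 with PyMT-M cells, against 1 count alone. The scaffold Wwc1, or KIBRA, which activates LATS, was at least 72.3-fold higher with PyMT-N cells and at least 88.5-fold higher with PyMT-M cells than alone, where it was at 0. The atypical cadherin Fat1 had 74.7 ± 10.7 with PyMT-N cells, 15.3 ± 1.22 with PyMT-M cells and 0.296 ± 0.512 alone, and differed between the co-cultures by 2.29 ± 0.26 (adjusted p = 4.69e-06).

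Of the genes of smallest p between the co-cultures, Vgll3 and Amot were near 0 with PyMT-M cells. The TEAD cofactor gene Vgll3 had 34.3, 65.2 and 42.6 normalised CPM in the PyMT-N libraries, 0, 0.190 and 0 in the PyMT-M libraries, and 0 in each alone library, a ratio of 646 between the co-cultures (95% counting interval 116 to 25576, adjusted p = 1.06e-06). Amot, the founding angiomotin, had 11.1, 16.7 and 18.2 in the PyMT-N libraries, 0, 0.380 and 0 in the PyMT-M libraries, and 0, 1.86 and 0.751 in the alone libraries, a ratio of 107 between the co-cultures (29.3 to 893, adjusted p = 1.24e-06). In both genes every PyMT-N library was above all others.

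The falls of smallest p were in kinases and adaptors, Stk4 among them. Stk38, the NDR1 kinase related to LATS, had 223, 192 and 194 normalised CPM in the PyMT-N libraries, 394, 379.7 and 479 in the PyMT-M libraries, and 930.3, 1266 and 953 in the alone libraries, with no overlap between conditions. It fell by 2.37 ± 0.18 with PyMT-N cells against alone (adjusted p = 5.64e-08), by 1.33 ± 0.17 with PyMT-M cells against alone (adjusted p = 1.58e-05), and was 1.04 ± 0.17 lower with PyMT-N than with PyMT-M cells on the log2 scale (adjusted p = 2.32e-04). Mob1a, the coactivator subunit of LATS and NDR kinases, fell by 0.99 ± 0.16 with PyMT-N cells and by 1.17 ± 0.16 with PyMT-M cells. Taok3, a kinase of the TAO family that activates MST kinases, fell by 1.38 ± 0.26 with PyMT-N cells, and Rassf5, which binds MST1, fell by 1.27 ± 0.19 with PyMT-M cells. Scaled to pan-leukocyte genes, the only one of these falls against alone that stayed called was Stk38 with PyMT-N cells (-1.26, adjusted p = 3.59e-05), and its difference between the co-cultures was -1.44 (adjusted p = 2.33e-05). The pan-leukocyte gene Ptprc, or CD45, had 541 ± 71.2 with PyMT-N cells, 714 ± 57.5 with PyMT-M cells and 2017 ± 426 alone; whether these kinases moved with the leukocyte share was not tested beyond the pan-leukocyte scaling above.

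Genes with the most similar pattern over the 9 libraries were found by Pearson's r of log2 CPM, as a description in which the 3 conditions set most of the correlation. For Yap1 they were the spindle gene Gpsm2 (r = 0.998), with 15.5 normalised CPM with PyMT-N cells, 43.4 with PyMT-M cells and 4.29 alone, the histone methyltransferase subunit gene Ash2l (0.996), and the augmin subunit gene Haus7 (0.996). For Wwtr1 they were the translation factor gene Eif4g2 (0.998), Arhgef17 (0.998), which is also on the target list, and Mical3 (0.995). Eif4g2 had 872 with PyMT-N cells, 873 with PyMT-M cells and 649 alone, so a like pattern went with a far smaller range. For Tead1 they were the scaffold gene Dlg5 (1.00), Bcar1 (0.999), which encodes the adaptor p130Cas, and Steap1 (0.998), all at 0 in the alone libraries.

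Protein-coding genes within 1 Mb of Yap1 were read after the Yap1 values had been seen, to show the level of its surroundings. Of 20 such genes 12 were tested, and with PyMT-N against PyMT-M cells 3 of the 12 were called lower and 6 higher, beside 15.5% and 19.1% of all tested genes. Tmem123, a membrane protein gene, had 70.0 ± 9.92 normalised CPM with PyMT-N cells, 283 ± 24.6 with PyMT-M cells and 159 ± 17.9 alone, a difference between the co-cultures of -2.02 ± 0.19 (adjusted p = 7.67e-07). Dcun1d5, a neddylation cofactor gene, had 54.0 ± 5.14 with PyMT-N cells, 181 ± 23.8 with PyMT-M cells and 36.1 ± 19.1 alone (-1.74 ± 0.27, adjusted p = 1.14e-04). Birc2, which encodes the apoptosis inhibitor cIAP1, had 16.5 ± 2.77 with PyMT-N cells, 36.7 ± 10.6 with PyMT-M cells and 35.1 ± 12.3 alone (adjusted p = 0.00935). Between Birc2 and Yap1 lies Birc3, the cIAP2 gene, which went the other way, with 347 ± 53.1 with PyMT-N cells, 142 ± 13.2 with PyMT-M cells and 244 ± 11.1 alone (1.29 ± 0.17, adjusted p = 3.30e-05). The other 5 called higher with PyMT-N cells were matrix metalloproteinase genes, among them Mmp10 (7.98) and Mmp3 (6.35). Mmp1b, a tested neighbour without counts in the PyMT-M libraries, passed the filter through other libraries, so the filter set part of these neighbour counts.

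**Figure D5:**
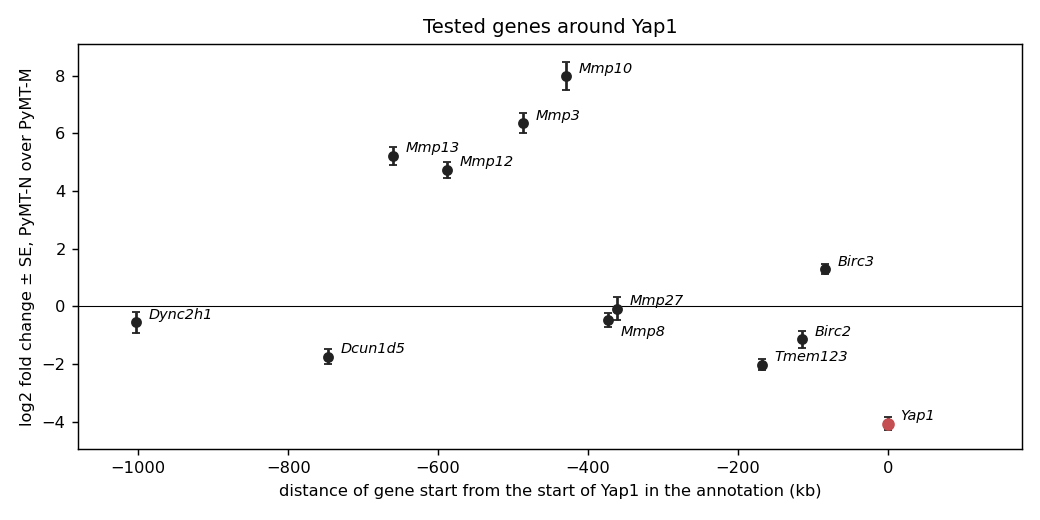
Log2 fold change ± SE of PyMT-N over PyMT-M co-culture (y axis) from edgeR for tested genes within 1 Mb of Yap1, by distance of the gene start in kilobases (x axis); Yap1 is red, and Mmp1b, at 0 with PyMT-M cells, is left out. Tmem123, Birc2 and Dcun1d5 lie below 0 beside Yap1, whereas Birc3 and the metalloproteinase genes Mmp3, Mmp10, Mmp12 and Mmp13 lie above it.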

How the data were processed

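RNA of 9 libraries in 3 groups of 3 was analysed. The deposited table held unnormalised read counts for Ensembl genes; the authors aligned with STAR to GRCm38 (mm10), per the submitters' processing notes. How reads were counted, on which annotation and with what strand setting, was not given in the sources used here. Genes that overlap, as Tead2 with Cd37 and Lats2 with Gm49361 do, and near-identical copies are uncertain. Symbols, exon lengths and coordinates came from GENCODE M21 on GRCm38, and 54409 of 54532 identifiers had a symbol.

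Counts were filtered with filterByExpr (count minimum 10, total minimum 15), scaled by TMM and fitted with a mean per group over all 9 libraries using the quasi-likelihood F test of edgeR 4.0.16 with robust moderation in R 4.3.3, with Benjamini-Hochberg adjustment over 12012 genes. SE is the fold change over the square root of F. The code was tested on simulated data. Alternatives were relative log expression size factors, library totals, scaling to pan-leukocyte genes, no filter, at least 50 counts in 3 libraries, a replicate block, compared groups only, a minimum log2 change of 1 in size, DESeq2 1.42.0 and leaving out each library. A group with 0 counts was set to 3 counts over the group, and one with 1 to 3 counts has a ratio with an exact 95% counting interval; counts of amplified reads are not independent molecules.

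The pathway genes and all lists were chosen with earlier results of these data known. All 10 pathway genes are named; of the 36 other pathway genes and 20 targets, up to 4 called genes of smallest p per direction and comparison are named, with the 3 genes of best correlation for Yap1, Wwtr1 and Tead1 and a few fixed markers. Neighbours of Yap1 and Cd37 stand outside that rule. RefSeq promoter windows matched 7 of 10 pathway genes and 13 of 20 targets.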

Additional observations from a re-analysis of the deposited data

Results flagged for a closer look

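Levels differed between the PyMT-N and PyMT-M co-cultures by the edgeR test of the difference itself for 4 of the 9 pathway genes tested. Of all 12012 tested genes, 4162 were called in that comparison. PyMT-N against PyMT-M was 1.71 for Amotl2, -4.06 for Yap1, 0.72 for Tead1 and -2.31 for Tead2 on the log2 scale. The Yap1, Tead2 and Amotl2 differences were called in all 14 alternative settings and that of Tead1 in 5 of 14.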

How the results depend on the processing

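Over 14 alternative settings each, Stk3, Amotl2, Yap1, Wwtr1, Tead1 and Tead4 kept their call against alone in both co-cultures, as did Tead2 with PyMT-M cells. Relative to the TMM scaling, the median of all genes moved by 0.29, 0.50 and -0.21 with library totals and by 1.11, 1.47 and -0.36 with pan-leukocyte scaling, for PyMT-N against alone, PyMT-M against alone and PyMT-N against PyMT-M; with relative log expression factors it moved by 0.05, 0.11 and -0.06. Lats2 with PyMT-M cells against alone reversed to 0.88 under pan-leukocyte scaling, and the cause was not tested. That scaling also brought calls for Lats1 (1.84), Lats2 (1.21) and Tead2 (1.55) with PyMT-N cells and Lats1 (1.64) with PyMT-M cells. Of the counts of called genes, 241 alternative values lay within 1.5 times the reported count and 29 did not. Pathway genes higher with PyMT-N than PyMT-M cells numbered 1 under the 3 other scalings, the 50-count filter, the fold minimum and DESeq2, and 5 when only the compared groups were fitted. Among the 36 other genes with PyMT-M cells against alone, 4 (library totals), 0 (pan-leukocyte) and 5 (compared groups only) were lower and 20 (pan-leukocyte) higher; with PyMT-N cells against alone, 1 (pan-leukocyte) and 4 (fold minimum) were lower. Of the targets, 0 were lower in either comparison with alone under pan-leukocyte scaling, 13 were higher with PyMT-M cells, and those lower with PyMT-N than PyMT-M cells numbered 2 (pan-leukocyte), 2 (no filter) and 0 (50-count filter). Leaving out single libraries gave 0 to 1 pathway genes lower with PyMT-M cells against alone, 1 to 2 higher with PyMT-N than PyMT-M cells, 6 to 13 of the other genes lower with PyMT-M cells against alone, and 1 to 2 targets lower with PyMT-N than PyMT-M cells. In the replicate block, Lats2 was 0.73 higher with PyMT-N than PyMT-M cells (adjusted p = 0.0355), the 3 pathway genes then called higher included it, and no other pathway gene changed its call; all calls numbered 6103, 6517 and 3967, against 6364, 6735 and 4162. Same-numbered libraries correlated at -0.0781 to 0.0285 in their deviations, never over 0.1, so the numbers were not used to pair libraries; the labels do not say what they mark. Genes at a few counts alone, such as Tead3 and Tead4, have folds limited by depth.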
